A study of Homo sapiens with 7 samples.

Results

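Prostanoids are short-lived lipid messengers made from arachidonic acid, and 9 genes of their synthesis and reception were followed here across 7 microarrays of NCI-H520 cells. These were PTGS1 and PTGS2, the cyclooxygenases, PTGES, PTGES2 and PTGES3, the prostaglandin E synthases, PTGIS, the prostacyclin synthase, PTGER2 and PTGER4, receptors for prostaglandin E2, and PTGIR, the receptor for prostacyclin. They were chosen by name, PTGIR because the study singled it out, and every gene probe whose transcript accession maps to one of the 9 symbols was used. That gave 10 probes, 2 of them for PTGS1, among 42405 gene probes on the array, of which 24826 carried a current gene symbol, for 19062 symbols in all.

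NCI-H520 is a cell line that came from a squamous lung carcinoma. All cells received 6 µg of plasmid by liposomes, were put under puromycin at 6 µg/mL from 12 h on, and were harvested at 72 h. The control groups were an empty vector and a non-target shRNA, and the other 5 groups received an shRNA against a deadenylase, an enzyme that removes the poly(A) tail of mRNA: PARN, CNOT6, CNOT6L, CNOT7 or NOC (nocturnin, gene NOCT). Each group had 1 array, so no difference between groups has a replicate check, and the spread between the 2 control arrays is the only measure of how far cells without a deadenylase shRNA can differ. The labels give the CNOT6L shRNA the transcript accession of NOC, which leaves the target of that plasmid uncertain. On that array CNOT6L read 63.0% and 57.1% of the control mean with its probes, each the lowest of the 7 arrays. NOCT was lowest on the NOC shRNA array.

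In the pathway, phospholipases free arachidonic acid from membranes, cyclooxygenases turn it into prostaglandin H2, and terminal synthases convert that into prostaglandin E2, prostacyclin, thromboxane and others. Each product acts through receptors of the G protein-coupled family on nearby cells, and in lung cancer the inducible cyclooxygenase PTGS2 and prostaglandin E2 are the best known branch. Prostacyclin and its receptor are known above all from blood vessels and platelets.

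Levels are log2 of the background-corrected signal minus the 75th percentile of the same array, so that 0 is the 75th percentile and only differences between arrays of 1 probe can be read. That percentile ranged from 1360 to 3939 signal units, and 82.0% to 91.5% of gene probes were above background, the lowest share on the non-target array and the highest on the empty-vector array. Each shRNA array had the lowest level of its own target among the 7 arrays, from 45.7% of the control mean for PARN to 89.5% for CNOT6. On its array CNOT6 was -0.21 from the empty-vector and -0.11 from the non-target level on the log2 scale. For NOCT on the NOC shRNA array these were -0.62 and -0.21, so both falls were small and unreplicated. All 5 epithelial markers and 3 of 7 squamous markers, SOX2, KRT6A and PKP1, were above background on every array, whereas TP63, KRT5, KRT14 and DSG3 were not. Of all 42405 gene probes, 33744 were above background on every array. On the slide, row 1 carried both controls with PARN and CNOT6 shRNA, and row 2 carried CNOT6L, CNOT7 and NOC shRNA, the last of which had its image extracted on another day.

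The promoter windows of PTGS2 and PTGES3 are shown because the levels of these genes, given further down, divided the arrays in the same way. RefSeq start sites of build GRCh38.p14 gave a window for 7 of the 9 members, 10 windows in all, each from 250 bases before to 50 bases after the start. No window was at hand for PTGIR and PTGIS. Both windows are written 5′ to 3′ on the gene's strand, with capitals marking the motifs searched on both strands. The first was TATAAA, the TATA box. The next was CGTCA, which is part of the cAMP response element. The others were GGGCGG, known as the GC box, and the element CCAAT. PTGS2 is chr1:186680374-186680673 on the minus strand, and PTGES3 is chr12:56688235-56688534 on the minus strand.
PTGS2: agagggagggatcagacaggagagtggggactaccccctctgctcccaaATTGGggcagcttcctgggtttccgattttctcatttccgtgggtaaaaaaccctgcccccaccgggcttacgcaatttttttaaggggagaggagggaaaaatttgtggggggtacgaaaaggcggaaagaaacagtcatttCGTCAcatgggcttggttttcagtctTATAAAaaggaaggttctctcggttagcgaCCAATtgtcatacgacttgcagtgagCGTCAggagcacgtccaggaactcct
PTGES3: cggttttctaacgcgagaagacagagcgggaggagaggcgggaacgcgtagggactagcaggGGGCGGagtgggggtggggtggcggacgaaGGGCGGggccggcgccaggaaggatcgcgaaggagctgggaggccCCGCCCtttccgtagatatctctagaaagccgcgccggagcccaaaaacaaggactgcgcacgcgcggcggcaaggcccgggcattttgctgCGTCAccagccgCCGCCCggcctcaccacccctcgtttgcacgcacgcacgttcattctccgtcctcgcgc
In PTGS2 a TATAAA began 32 bases before the start, a CGTCA began 58 bases before it, and no GGGCGG was found. PTGES3 held 4 GGGCGG and a CGTCA that began 21 bases before the start, with no TATAAA. No match overlapped another in either window. Among all 35116 windows, 11.5% held TATAAA, 24.6% CGTCA, 45.0% GGGCGG and 34.6% CCAAT. Of the 10 member windows, 2 held TATAAA, 3 CGTCA, 9 GGGCGG and 2 CCAAT. The windows were 50.7% GC for PTGS2 and 68.0% for PTGES3, and the median over all windows was 58.7%. A match is a run of letters and does not show that a factor binds there.

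Against both controls, no member changed at least 2-fold upon any of the 5 shRNAs. A call needed a distance of at least 2-fold, on the same side, from the empty-vector and from the non-target array, with the brighter array above background. The members' count was 0 of 9 for each shRNA, 0 of 45 comparisons in all. Over all gene probes the rule called 0.738% upon PARN, 0.686% upon CNOT6, 1.03% upon CNOT6L, 1.38% upon CNOT7 and 1.8% upon NOC shRNA. At shares this low, a count of 0 among 9 genes is near the background. The 6 members above background on all arrays had a median log2 difference from the control mean between -0.10 for CNOT6 shRNA and 0.08 for CNOT7 shRNA, and the median over the 33744 probes above background on all arrays lay between -0.07 and 0.11.

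**Figure D1:**
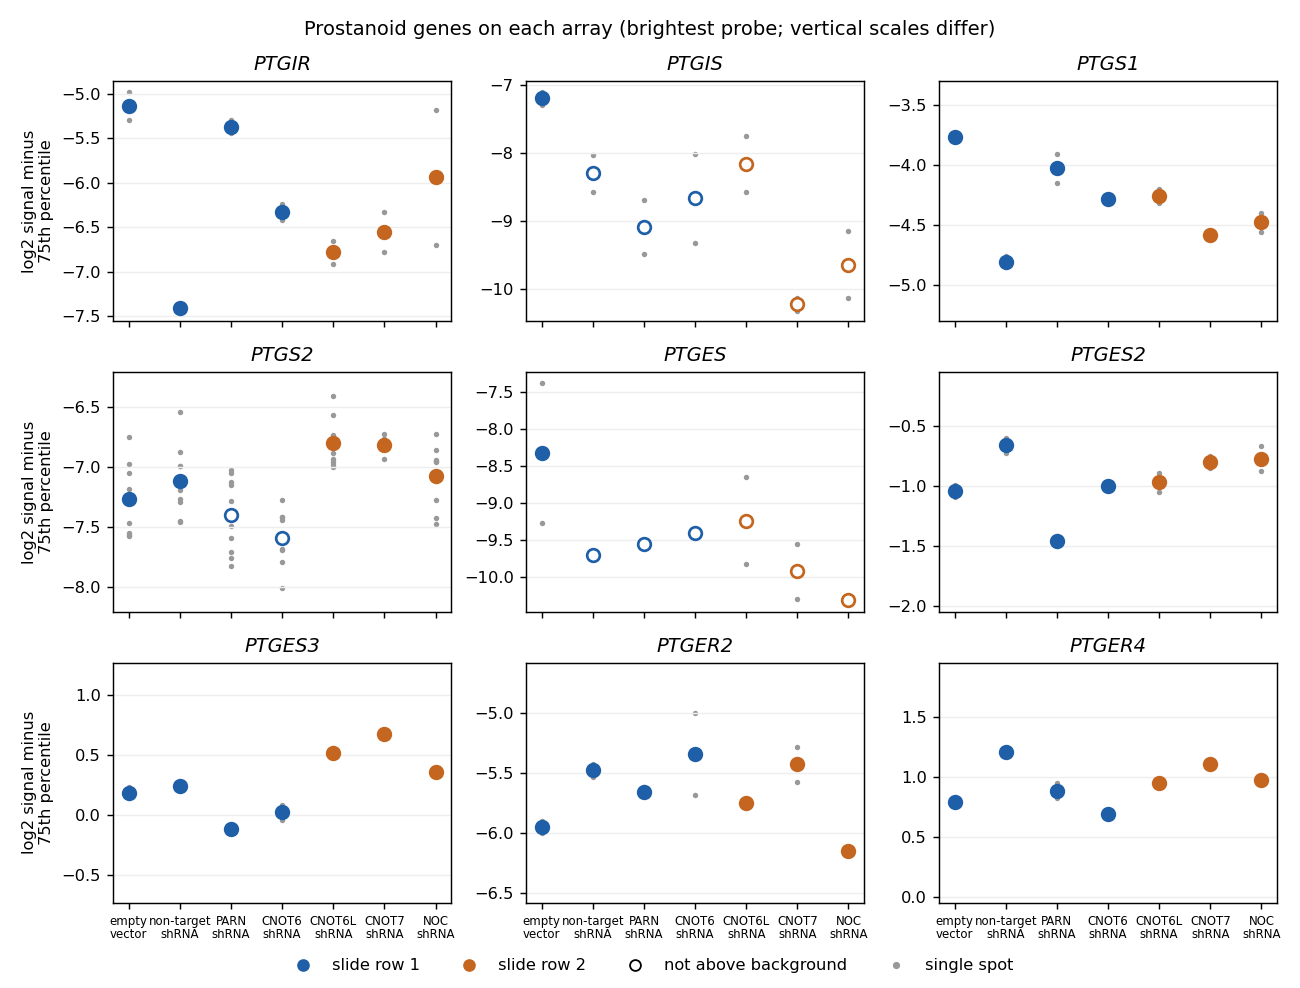
Levels of the 9 genes (vertical axis, log2 signal minus the 75th percentile of the array, with a scale of its own in each panel) on the 7 arrays (horizontal axis). Large points are the mean of the spots of the gene's brightest probe, filled where the probe was above background, blue in slide row 1 and orange in row 2, and grey points are single spots. PTGIR is highest with the empty vector and lowest with the non-target shRNA, PTGIS and PTGES are filled for the empty vector alone, and PTGES3 is higher on the 3 row 2 arrays than on the 4 row 1 arrays.

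The cyclooxygenases carry out the step that all prostanoids share. PTGS1, the constitutive form, was above background on all 7 arrays with both of its probes. With its brighter probe, PTGS1 stood at -3.77 with the empty vector, -4.81 with the non-target shRNA, -4.03 upon PARN shRNA, -4.28 upon CNOT6 shRNA, -4.26 upon CNOT6L shRNA, -4.59 upon CNOT7 shRNA and -4.48 upon NOC shRNA. The control arrays were thus the extremes, the empty vector at the top and the non-target shRNA at the bottom, except with no scaling, where CNOT6 shRNA was lowest, and under normexp (a model-based background correction), where CNOT7 shRNA was lowest and CNOT6 shRNA highest. Between the controls PTGS1 was 2.05-fold lower with the non-target shRNA. With the other PTGS1 probe, printed on 1 spot, the levels ran from -6.34 upon NOC shRNA to -5.38 on the empty-vector array. The non-target array then stood at -6.02, which was not the lowest level, so that the probes share the high empty-vector value and differ in the lowest array.

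PTGS2, the inducible cyclooxygenase, was close to background. Its probe was printed 10 times, and the spots marked well above background numbered 9 with the empty vector, 6 with the non-target shRNA, 3 upon PARN shRNA and 1 upon CNOT6 shRNA, against 10 on each of the 3 row 2 arrays. By the rule of at least 50% of spots, PTGS2 was not well above background upon PARN and CNOT6 shRNA, so these levels are upper bounds. Its level was -7.27 ± 0.28 (SD, n = 10 spots) with the empty vector and -7.11 ± 0.28 (SD, n = 10 spots) with the non-target shRNA. It read -7.40 ± 0.31 (SD, n = 10 spots) upon PARN shRNA and -7.59 ± 0.24 (SD, n = 8 spots) upon CNOT6 shRNA. The row 2 arrays read -6.80 ± 0.19 (SD, n = 10 spots) upon CNOT6L shRNA, -6.81 ± 0.06 (SD, n = 9 spots) upon CNOT7 shRNA and -7.08 ± 0.24 (SD, n = 10 spots) upon NOC shRNA. These SDs are the spread between spots within an array and say nothing about the spread between transfections. All 3 row 2 means were above all 4 row 1 means, but the gap between the NOC and the non-target array was smaller than the SD between spots of either.

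The terminal synthases for prostaglandin E2 fell into detected and undetected genes. PTGES, the membrane-bound inducible synthase, was above background only on the empty-vector array, at -8.32, and there on 1 of its 2 spots. On the other 6 arrays it read from -10.31 to -9.24 and was not well above background. In the reported scaling PTGES with the empty vector read 2.45-fold above the lowest level of any probe above background on the non-target array. That figure is no firm bound, since non-target spots of PTGIR at -7.44 and PTGS2 at -7.19 were not marked well above background. It also rests on the brighter empty-vector spot, at -7.37, since the other read -9.27, near the -9.71 and -9.70 of the non-target spots. Under normexp the sign of non-target minus empty vector turned, from -1.38 to 0.21, and PTGES was not called under quantile normalization or with outlier spots kept.

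PTGES2, a membrane-associated synthase, was above background on all 7 arrays. It read -1.04 with the empty vector, -0.66 with the non-target shRNA, -1.46 upon PARN shRNA, -0.97 upon CNOT6L shRNA, -0.80 upon CNOT7 shRNA and -0.78 upon NOC shRNA. Upon CNOT6 shRNA it was 0.04 above the empty vector. The PARN shRNA array was the lowest, and the next array up, the empty vector, was 0.42 higher on the log2 scale. That gap exceeded the difference of 0.38 between the 2 controls only slightly. Upon PARN shRNA the PTGES2 level was -0.42 from the empty-vector and -0.80 from the non-target array, both short of 2-fold.

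PTGES3, the cytosolic synthase that also serves as the HSP90 co-chaperone p23, was above background on all spots. It stood at 0.19 with the empty vector, 0.25 with the non-target shRNA, -0.12 upon PARN shRNA and 0.02 upon CNOT6 shRNA. In slide row 2 it stood at 0.52 upon CNOT6L shRNA, 0.67 upon CNOT7 shRNA and 0.36 upon NOC shRNA. The slide rows did not overlap, and the row 2 mean was 0.43 above the row 1 mean on the log2 scale, whereas the 2 controls differed by 0.06. The lowest of the 7 levels was that of the PARN shRNA array, as for PTGES2, under every scaling tried except none at all, where both genes were lowest upon CNOT6 shRNA. In all, 2 of the 7 members above background on at least 2 arrays were lowest upon PARN shRNA, and 15.1% of the 38005 gene probes that passed the same filter were.

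Both PTGS2 and PTGES3 thus separated the slide rows, 2 of 7 members, where 9.07% of gene probes had all 3 row 2 arrays higher and 14.8% had all 3 lower, the latter with 0 of 7 members. Row 2 held CNOT6L, CNOT7 and NOC shRNA and neither control, so slide row and shRNA cannot be told apart. The PTGES3 rows stayed apart under quantile normalization, with no scaling, with normexp, in the series table and with outlier spots kept. For PTGS2 the rows overlapped under quantile normalization, and with normexp the sign turned, to -0.38 for row 2 minus row 1 against 0.45 as reported. When each row 2 array was compared with the other arrays of its own row, 0 of 9 members differed at least 2-fold from both, where the same rule called 1.16% of gene probes for CNOT6L, 0.316% for CNOT7 and 0.446% for NOC shRNA.

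PTGIS makes prostacyclin, the ligand of PTGIR. It was above background only on the empty-vector array, at -7.19 with both spots marked. Its other 6 levels ran from -10.22 upon CNOT7 shRNA to -8.16 upon CNOT6L shRNA, with no spot marked. PTGIS read 2.15-fold higher with the empty vector than with the non-target shRNA in the reported scaling, no firm bound for an unmarked reading. The sign of non-target minus empty vector for PTGIS turned from -1.10 to 0.26 under quantile normalization and to 0.19 under normexp. Its readings upon CNOT7 shRNA were -3.03 and -1.93 from these controls, but 2 of those 3 arrays were not above background, so no call was made and no order can be read among the 6 arrays with an shRNA plasmid.

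PTGIR was detected on all 7 arrays, at low signals of 13.3 to 102.7 units per spot. Its level was -5.13 with the empty vector, -7.41 with the non-target shRNA and -5.37 upon PARN shRNA. Upon the other shRNAs it was -6.32 for CNOT6, -6.78 for CNOT6L, -6.56 for CNOT7 and -5.94 for NOC. As for PTGS1, the controls were the extremes, except under quantile normalization, where PARN shRNA was highest, and under normexp, where CNOT6 shRNA was highest and CNOT7 shRNA lowest. On the non-target array 1 of the 2 PTGIR spots was well above background, and on all other arrays both were.

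The 2 PTGIR spots read -5.29 and -4.98 with the empty vector, -7.39 and -7.44 with the non-target shRNA and -5.45 and -5.30 upon PARN shRNA. Upon NOC shRNA they read -5.18 and -6.70, a gap larger than that between the PARN and CNOT6 shRNA means. The order of PTGIR levels ran from non-target through CNOT6L, CNOT7, CNOT6, NOC and PARN shRNA to the empty vector. With an SD between spots of 1.08 upon NOC shRNA, the place of that array among its neighbours is not settled.

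Upon PARN silencing PTGIR was 4.12-fold higher than on the non-target array, a log2 difference of 2.04. Against the empty-vector array it was -0.24 on the log2 scale, a fold of 0.849. The difference from the mean of both controls was 0.90, and the controls differed by 2.28. Of the 33744 probes above background on all arrays, 0.516% were at least as far above the non-target array upon PARN shRNA as PTGIR, 0.990% were at least as far above the control mean, and 0.599% were at least as far below the empty vector on the non-target array. The study had picked PTGIR among transcripts called higher upon PARN silencing in these cells, so its high ranks upon PARN shRNA are no separate evidence. The gap between the controls is not independent of that choice either, since the non-target level enters both. PTGIR stood among the probes on which the controls differ most, and whether PARN shRNA raised it depends on which control is taken.

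**Figure D2:**
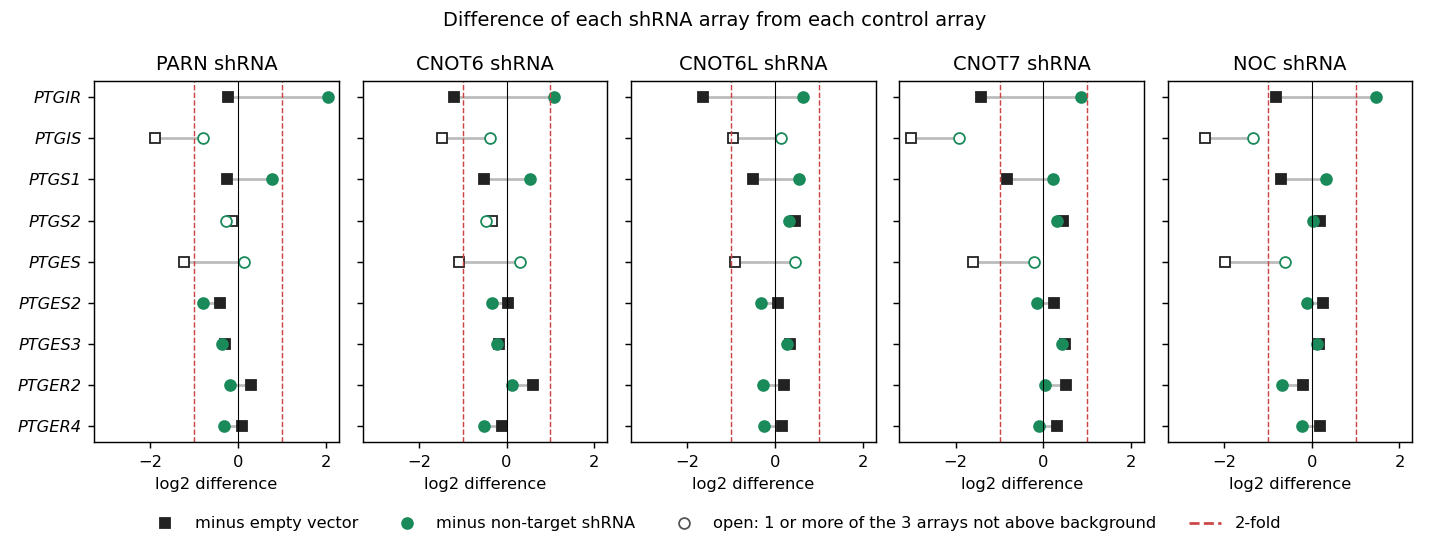
Log2 difference of each shRNA array (1 panel each) from the empty-vector array (black squares) and from the non-target array (green circles) for the 9 genes, with dashed lines at 2-fold. Symbols are open where 1 or more of the 3 arrays was not above background. In no panel do both symbols of a gene with filled symbols lie beyond the same dashed line, and for PTGIR they lie on opposite sides of 0 in every panel.

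Taken against the non-target array alone, PTGIR was at least 2-fold higher upon PARN, CNOT6 and NOC shRNA, the only member called higher with that reference. Over all gene probes this reference alone called higher 5.56% for PARN, 10.8% for CNOT6, 7.42% for CNOT6L, 6.59% for CNOT7 and 6.68% for NOC shRNA. Taken against the empty-vector array alone, 8 lower calls were made among 45, of PTGIR upon CNOT6, CNOT6L and CNOT7 shRNA, of PTGIS upon PARN, CNOT6, CNOT7 and NOC shRNA and of PTGES upon CNOT6 shRNA. The shares of gene probes called lower against it were 7.65% for PARN, 4.78% for CNOT6, 9.17% for CNOT6L, 10.8% for CNOT7 and 11.5% for NOC shRNA. PTGIR upon CNOT6 shRNA was hence called higher with one control and lower with the other, by 1.09 and -1.19 on the log2 scale.

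By the 2-fold rule the controls themselves differed for 4 of 9 members, PTGIR, PTGIS, PTGS1 and PTGES, each called lower on the non-target array. The PTGIS and PTGES calls rest on non-target readings not above background, so their size is not settled. PTGS1 was 1.56-fold lower there with its other probe, short of 2-fold. Among gene probes 16.6% were lower and 0.663% higher by that rule, so most calls between the controls ran the same way as those of the members. PTGES2, PTGER2 and PTGER4 were higher on the non-target array by 0.38, 0.47 and 0.42 on the log2 scale, short of 2-fold, and with no scaling the sign turned for each, to -0.12, -0.02 and -0.08. Under quantile normalization PTGER2 was 1.26 and PTGS2 1.40 higher on the non-target array, both past 2-fold, where the reported scaling gave 0.47 and 0.15. Of the 7 members above background on at least 2 arrays, PTGIR and PTGS1 had the empty vector highest and the non-target array lowest of all 7, and 8.14% of gene probes had that order. None of the 7 had all 5 shRNA arrays above both controls, which 2.8% of gene probes had, and none had all 5 below, which 3.52% had.

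The PTGIR differences also moved with the processing. Under normexp background correction with an offset of 50, PARN shRNA minus non-target dropped from 2.04 to 0.64 and the difference between the controls moved from -2.28 to -0.62. That offset is added to each spot before the log2 step, which by construction lowers folds between signals as dim as those of PTGIR. Under quantile normalization PARN shRNA was 1.60 above the non-target array and 0.15 above the empty vector, where the reported scaling put it at -0.24.

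**Figure D3:**
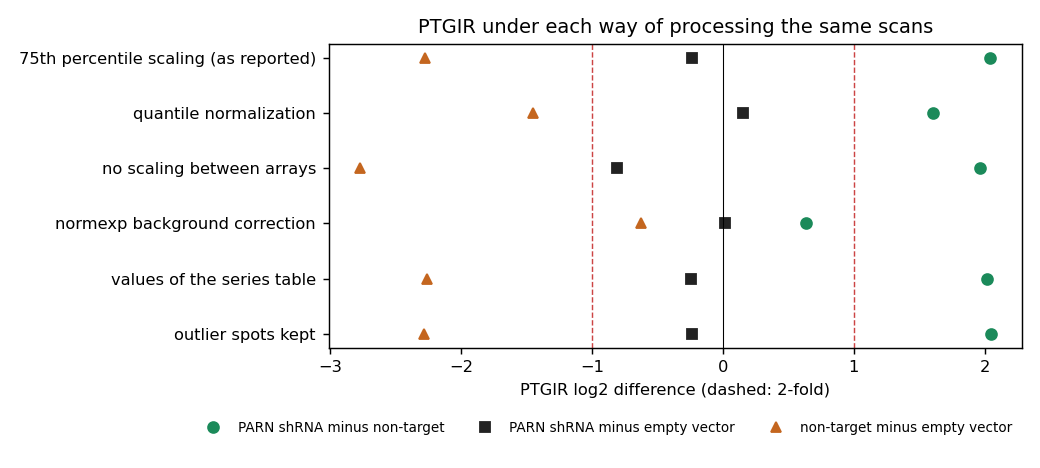
PTGIR log2 differences (horizontal axis, dashed lines at 2-fold) between the PARN shRNA array and each control and between the controls, for the scaling used here and 5 other ways of processing the same scans (vertical axis). The PARN shRNA array lies between 0.64 and 2.05 above the non-target array and between -0.81 and 0.15 of the empty-vector array, and normexp gives the smallest distances.

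The 5 named genes whose profile over the 7 arrays was nearest to PTGIR were LILRB3, CD68, GGT8P, ZBED2 and ZNF705A, out of 16455 genes. Nearness is the root mean square difference after each gene's own mean is removed, and it was 0.25 log2 for LILRB3, 0.25 for CD68, 0.26 for GGT8P, 0.29 for ZBED2 and 0.29 for ZNF705A. Their Pearson correlations with PTGIR over 7 arrays lay between 0.93 and 0.98, given as a description of arrays that share 1 slide. PTGS1 was the nearest member, in place 441 with a distance of 0.49, while PTGES2, PTGES3, PTGER2 and PTGER4 lay in places 13516 to 15269. CD68 is a macrophage marker and LILRB3 a receptor of myeloid cells, so the whole leukocyte list is given: PTPRC, CD3E, CD14, CD68 and MS4A1 were above background on all 7 arrays, 5 of 5. So were 33744 of the 42405 gene probes, so being above background sets none of the marker lists here apart. Their summed signal was lowest on the non-target array, at 2.95, and between 3.76 and 3.88 on the other 6, but this sum is nearly that of CD14 alone, which ran from 2.92 to 3.85. Taken gene by gene, CD14, CD68 and MS4A1, 3 of the 5, were lowest on the non-target array, whereas CD3E was lowest upon PARN shRNA and PTPRC upon NOC shRNA. The endothelial list, with PECAM1, CDH5 and VWF all above background on every array, and the platelet list were also lowest on the non-target array by their sums, at -3.17 and -1.49, and gene by gene in 3 of 3 and 2 of 3. Endothelial sums elsewhere were -2.83 to -2.13 and platelet sums -1.35 to -0.76. The mast cell list was lowest there too, at -5.76 and in 2 of 2 genes, with TPSAB1 above background on 2 arrays. By their sums the fibroblast and alveolar lists were lowest upon PARN shRNA, at -2.60 and -0.52. Gene by gene, 1 of 4 fibroblast and 3 of 4 alveolar genes were lowest on the non-target array, and COL3A1 was above background on no array. The squamous sum was 5.40 on the non-target array, within 4.62 to 5.47 over all arrays. The epithelial sum was 7.52 there, within 7.39 to 7.87. In the squamous list 1 of 7 genes and in the epithelial list 1 of 5 were lowest on the non-target array. How many of all gene probes were lowest on the non-target array was not counted, so these marker counts have no background share. By the 2-fold rule 16.6% of gene probes were lower there than with the empty vector and 0.663% higher. The part of the cell markers, and of the low share of probes above background on the non-target array, in the PTGIR result was not tested.

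**Figure D4:**
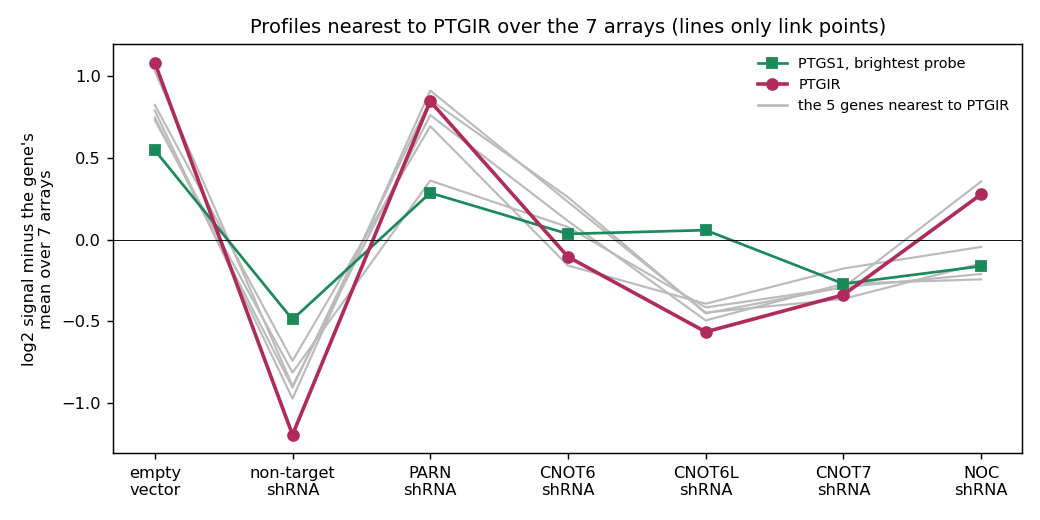
Levels of PTGIR, of PTGS1 and of the 5 genes nearest to PTGIR on the 7 arrays, each as log2 signal minus the gene's own mean (vertical axis). All 7 profiles have their lowest point on the non-target array and a high empty-vector array, and PTGS1 spans 1.04 log2 where PTGIR spans 2.28. The 5 genes were picked for nearness to PTGIR, so their likeness to it follows from the choice.

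The prostaglandin E2 receptors were detected throughout. PTGER2, which raises cAMP, read -5.95 with the empty vector, -5.48 with the non-target shRNA, -5.66 upon PARN shRNA, -5.34 upon CNOT6 shRNA, -5.75 upon CNOT6L shRNA, -5.43 upon CNOT7 shRNA and -6.15 upon NOC shRNA. The range over the 7 arrays was 1.75-fold. Upon NOC shRNA PTGER2 was the lowest, 0.20 below the empty vector on the log2 scale, which is less than the difference between the controls. Its CNOT6 shRNA spots were the furthest apart, with an SD of 0.48, so that the highest level is also the least certain.

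PTGER4, the other cAMP-raising receptor for prostaglandin E2, showed the smallest range of the 9 genes, 1.43-fold. It read 0.80 with the empty vector, 1.21 with the non-target shRNA, 0.89 upon PARN shRNA, 0.70 upon CNOT6 shRNA, 0.95 upon CNOT6L shRNA, 1.11 upon CNOT7 shRNA and 0.98 upon NOC shRNA. The CNOT6 shRNA value rests on 1 of 2 spots, since the software marked the other as an outlier, and with that spot kept the empty vector was the lowest. Only CNOT6 shRNA lay outside the span of the 2 controls.

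A single fit of the 5 shRNA arrays against the 2 controls (limma, two-sided, Benjamini-Hochberg over 38091 probes) called 0 of 8 member probes, and 0% of all probes. At an unadjusted p under 0.05 it had 0 member probes and 1433 of all probes. The PTGIR difference in this fit was 0.08 with a standard error of 0.59 and an adjusted p of 1 in limma, and the largest in size was -0.25 ± 0.32 (SE), for the second PTGS1 probe. PTGIS and PTGES did not enter, being above background on 1 array. The spread in this fit is that between different shRNAs and different control plasmids. Without the empty-vector array PTGIR was 1.22 higher with the shRNAs, a contrast that rests on 1 control array. Without the non-target array, again with 1 control array left, the sign was the opposite, with a difference of -1.06.

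Of 27 other genes of the pathway, 26 had a probe and 25 were above background on all 7 arrays, HPGD, which inactivates prostaglandins, being the exception on every array. None of the 26 was called against both controls upon any shRNA, and none passed the limma fit. Between the controls 2 of the 26 were higher and 3 lower on the non-target array by 2-fold, beside 0.663% and 16.6% of gene probes. PTGR2, a reductase of prostaglandin breakdown, was higher there by 1.17, and TBXA2R, the thromboxane receptor, by 1.14 on the log2 scale with its brightest probe. The other 2 TBXA2R probes, also above background on all 7 arrays, went the other way, at -0.23 and -0.58. PTGDS and HPGDS, both prostaglandin D2 synthases, stood at -1.05 and -1.26 there relative to the empty vector, and PTGER3, a prostaglandin E2 receptor that lowers cAMP, at -1.51.

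Among the substrate enzymes, PLA2G4A, the phospholipase that frees arachidonic acid, read -3.66 with the empty vector, -2.78 with the non-target shRNA, -3.62 upon PARN shRNA and -4.16 upon CNOT6 shRNA. It read -2.50 upon CNOT6L shRNA, -2.17 upon CNOT7 shRNA and -2.49 upon NOC shRNA, all above the 4 row 1 arrays. PLA2G10, AKR1B1 and the transporter SLCO2A1 showed the same separation of the slide rows, and PTGDR the opposite one. That made 4 of 25 genes with row 2 higher, beside 9.07% of gene probes, and 1 of 25 with row 2 lower, beside 14.8%. The thromboxane synthase TBXAS1 had the smallest p of the list in the limma fit, higher with the shRNAs by 0.79 ± 0.30 (SE) at an unadjusted p of 0.0246 and an adjusted p of 1. It read -1.03 with the empty vector, -1.92 with the non-target shRNA, -1.28 upon PARN shRNA, and between -0.71 and -0.21 upon the other 4 shRNAs. The 4 PTGER3 probes were each lower with the non-target shRNA than with the empty vector, with differences of -1.51 to -0.77, and highest upon CNOT6 shRNA.

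**Figure D5:**
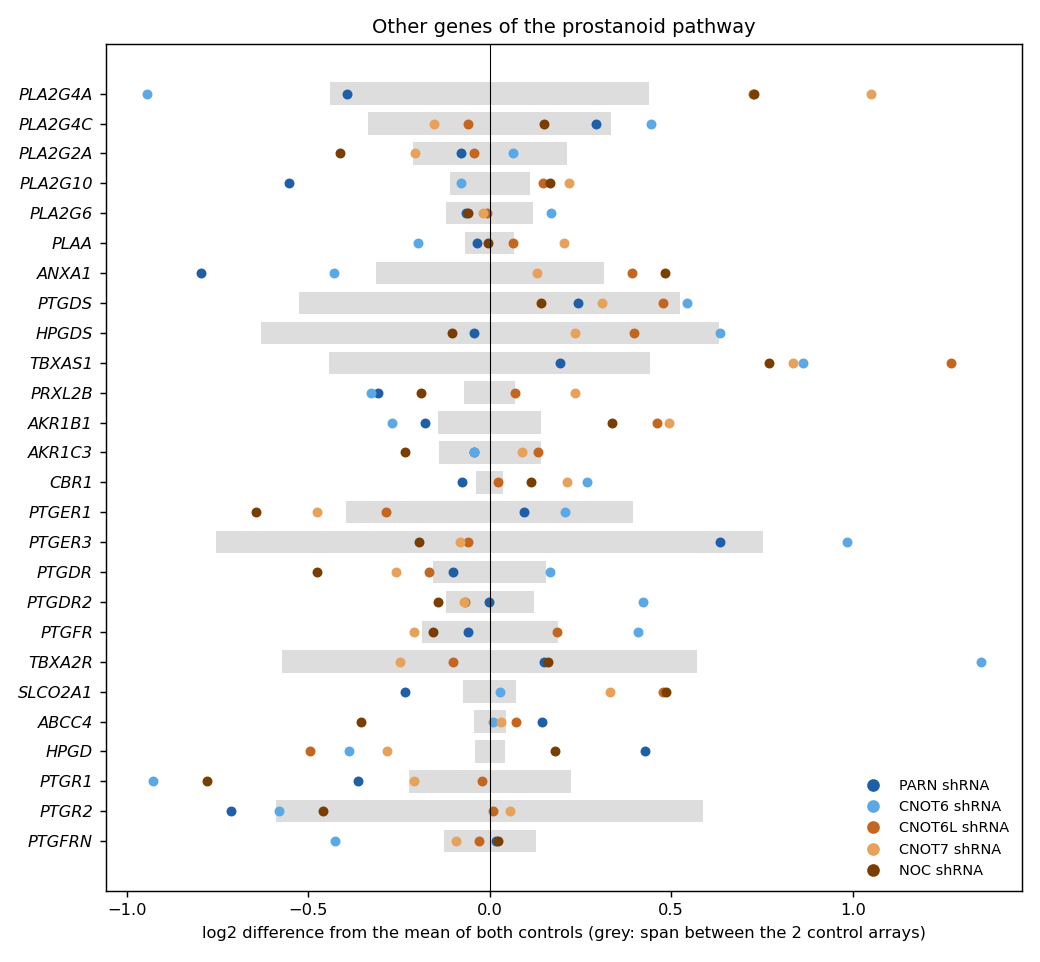
Log2 difference of each shRNA array from the mean of both controls (horizontal axis) for the brightest probe of 26 other pathway genes (vertical axis), with grey bars spanning the 2 control arrays. For PLA2G4A the CNOT6L, CNOT7 and NOC shRNA points lie at 0.72, 1.05 and 0.73 and the CNOT6 shRNA point at -0.94, and no gene is 2-fold beyond both ends of its bar.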

How the data were processed

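Total RNA of each culture was labelled with 1 dye and hybridised to a SurePrint G3 human array. Feature Extraction 10.7.3.1 had made the deposited scanner files, which give the intensity of every spot as measured, of its surroundings, and after correction by the software (the processed signal). The authors also deposited a table of log2 values centred on the median of each probe, with array medians of -0.02 to 0.09 and the scaling between arrays not stated, and for 100% of 33744 probes its differences between arrays matched those of the scanner values to 0.02 log2 once a constant for each array was removed. Processed signals were put on the log2 scale, the 75th percentile of the gene spots on each array was subtracted, outlier spots were dropped, and repeat spots were averaged. A probe was above background with at least 50% of its spots marked well above it. A dim side took its own value or the lowest value above background on that array, whichever was larger. Gene symbols came from RefSeq names of GRCh38.p14, and the probe of a gene with the largest mean signal stood for it. All members are named, and other genes follow a list of pathway genes, cell markers, targets and the 5 profiles nearest to PTGIR. Members and lists were chosen with earlier results of these data known. The fit used limma 3.58.1 in R 4.3.3 (lmFit, eBayes with trend) on probes above background on at least 2 arrays, with an adjusted p threshold of 0.05. Other steps used Python 3.11.15 and pandas 2.3.3. The code of the fit and of the 2-fold rule was checked on simulated data. Recovery of changed probes was required only at a spread below that of these arrays, so the check says nothing of power here. Alternatives were quantile normalization, no scaling, normexp on median and background signals with an offset of 50, the series table, outlier spots kept, probe means, a 4-fold threshold, filters on dim probes, other references, the slide row as a block and leaving out each array. Wild-type cells, which the labels mention as a control, were not analysed here. With 1 array per group, the number of arrays limits the precision.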

Additional observations from a re-analysis of the deposited data

How the results depend on the processing

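The 0 calls of members against both controls held under quantile normalization, normexp, the series table, outlier spots kept, probe means, a 4-fold threshold, the stricter background filter and same-row references. With no scaling 3 calls appeared, PTGS2, PTGES2 and PTGER4, all lower upon CNOT6 shRNA, the array with the lowest 75th percentile. Without scaling the dimness of that array enters every one of its probes. The share of all gene probes called by the 2-fold rule under the processing alternatives is not given here, so these member counts have no background share. With 1 control left out the calls numbered 3 to 8. The 4 members called between the controls became 0 under normexp (the cause was not tested) and 3 under quantile normalization, PTGIR lower and PTGS2 and PTGER2 higher on the non-target array. They were 3 with outlier spots kept, where PTGES was lost, and 3 with probe means, where PTGS1 was lost. The limma fit called 0 member probes with the slide row as a block, under quantile normalization and normexp, with no filter or a stricter filter on dim probes, and leaving out each array (0 to 0); the other alternatives were not run for it. PTGIR upon PARN shRNA against the control mean was 0.90, between 0.32 and 0.91 under the processing alternatives and between -0.24 and 2.04 with 1 control left out. Over the 45 differences of members from the control mean, the sign changed in 14 under normexp, 12 with no scaling, 5 under quantile normalization, 3 in the series table, 2 with probe means, 13 without the empty vector, 11 without the non-target shRNA and 0 with outlier spots kept. Relative to the non-target array, the median probe moved by -0.23 to -0.04 log2 under quantile normalization and by -0.16 to 0.11 under normexp. No paired analysis was possible because each group has 1 array. PTGIS, PTGES and PTGS2 are limited by signal over background. The slide row comparison of PTGS2 and PTGES3 was added after seeing the data.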
